A study of Mus musculus with 13 samples.

Results

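Nucleoporins, importins and exportins were followed through the maturation of single mouse oocytes. The members were all gene symbols of the count tables that start with Nup or Ipo and a number, with Tnpo and a digit, or with Xpo. The rule used names only, and found 37 of 18939 symbols: 21 nucleoporins, 10 importins (3 of them transportins) and 6 exportins. Import receptors and adaptors whose symbols start with Kpn were left out.

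Fully grown germinal vesicle (GV) oocytes came from C57BL/6 females aged 3 to 4 weeks and primed with PMSG. FBL–GFP and H2B-mCherry mRNAs were injected into all of them, and they were held for 6 h in Cilostamide, then classified by the FBL–GFP pattern of the nucleolus as non-surrounded (NSN) or surrounded (SN). SN GV (3 oocytes) and NSN GV (3) were sequenced at that stage, while SN-MII (4) and NSN-MII (3) were released from Cilostamide and matured in vitro to metaphase II (MII). Each library was 1 oocyte without its zona, the labels do not say which oocytes shared an animal, and the type of an MII oocyte is that of its GV stage, so NSN-MII oocytes are those NSN oocytes that reached MII. P-values here measure only the spread between these oocytes.

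Nuclear pores are built from rings of scaffold nucleoporins around a channel lined with nucleoporins rich in phenylalanine-glycine repeats. Importins carry cargo inwards and exportins carry it outwards, each driven by the GTPase Ran. The envelope of the GV and its pores come apart when meiosis resumes, so an MII oocyte has no nucleus. Little is transcribed during maturation, and stored mRNAs are degraded, kept or given a longer poly(A) tail. The SMART-seq2 protocol primes cDNA on poly(A) tails, so the amount of an mRNA and how well its tail is primed cannot be told apart in these values.

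Total counts were between 7140416 and 8846287 per library and the members took 0.378% to 0.714% of them, lowest in the second NSN GV oocyte and highest in the fourth SN-MII oocyte. That NSN GV oocyte was the lowest of the 6 GV libraries for 23 of the 35 members tested in the stage comparison, and the third NSN-MII oocyte had the fewest genes with a count, 11593 against at most 13342. All 12 oocyte markers had counts in every library, with a summed level of 25906 to 38516 CPM, the counts scaled to a common library total. The 17 markers of cumulus and granulosa cells summed to 61.7 to 93.6 CPM in SN GV, 68.7 to 76.3 in NSN GV, 103 to 132 in SN-MII and 101 to 189 in NSN-MII oocytes. Of these, Cyp19a1 alone gave 37.8 to 158 CPM, while Foxl2, Ptx3 and Lhcgr were at 0 in all 13 libraries. The total was adjusted by TMM scaling, which sets libraries level by the bulk of their genes.

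The transcripts differed widely in level. Per length, as FPKM, the fragments scaled by transcript length and library total, Nup35, a scaffold protein of the inner ring, was the highest member with 288 ± 12.4 (SD, n = 3) in SN GV, 281 ± 42.6 (n = 3) in NSN GV, 509 ± 35.6 (n = 4) in SN-MII and 380 ± 51.2 (n = 3) in NSN-MII oocytes. Nup35 shares exon sequence on the same strand with Dusp19, so part of its reads may be assigned to the wrong gene. Nup85, of the outer rings, followed with a mean of 251 FPKM over the 13 libraries, and Nup88, on the cytoplasmic side, with 205 FPKM. The median nucleoporin had 53.3 FPKM at GV and 59.9 at MII, and 11 of 21 were over 50 FPKM at each stage, 10 of them at both, Nup50 at GV alone and Nup160 at MII alone. Importins had medians of 8.98 and 4.83 FPKM, and exportins of 6.73 and 5.48, with Ipo8 at MII the single one over 50, at 69.9 FPKM.

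At the other end, Xpot, which exports tRNA, averaged 0.486 FPKM. Its counts were 1, 3 and 29 in SN GV, 91, 5 and 0 in NSN GV, 2, 1, 1 and 1 in SN-MII and 20, 15 and 3 in NSN-MII oocytes. A pair of GV oocytes, 1 of each type, thus held most of its reads, and the stages overlapped. Nup210l and Nup62cl, relatives of Nup210 and Nup62, reached at most 11 and 2 counts in any library. Nup62cl was at 0 in all 6 GV oocytes and had 1, 2, 1 and 1 counts in SN-MII and 0, 0 and 1 in NSN-MII oocytes, and Nup210l was at 0 in 4 of the 13. They passed the filter on low counts in no comparison and were not tested. Of the 37 members, 34 were tested at GV and at MII, and 35, Xpot added, between stages.

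**Figure D1:**
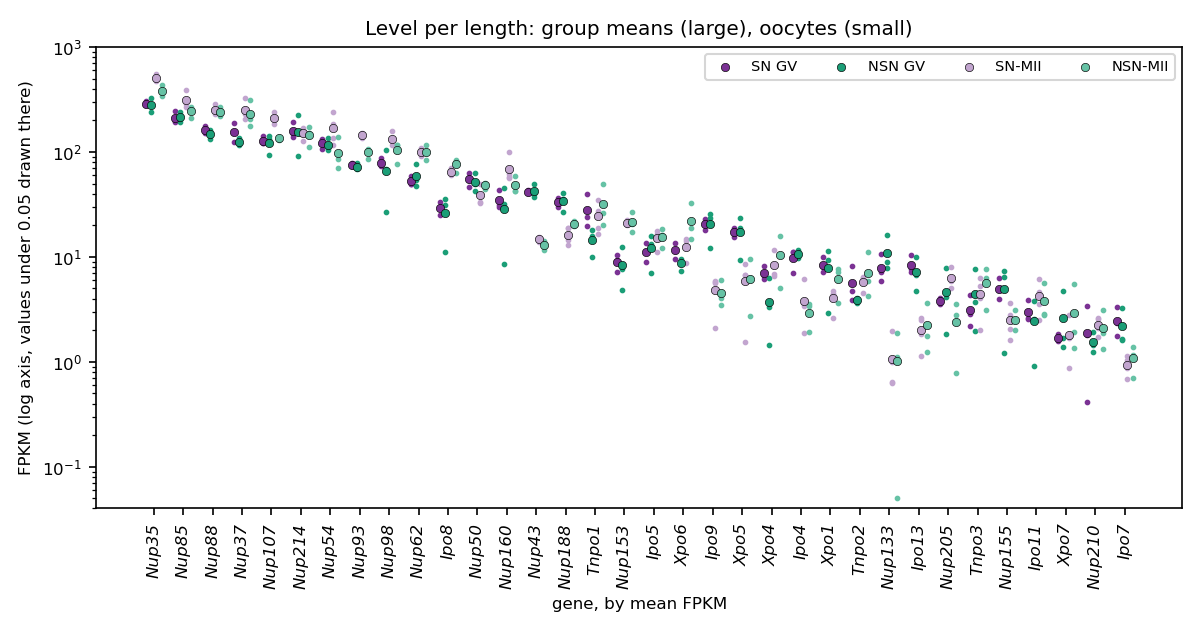
Level per length of the 34 members with a mean of at least 1 FPKM, on a log axis, with large points for the mean of each group and small points for single oocytes. Nucleoporins fill most of the left side, with Nup35 highest, and Nup133 shows the widest gap between GV and MII oocytes.

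The first comparison was between stages. Of 35 members tested, 25 (71.4%) passed edgeR's quasi-likelihood test at an adjusted p under 0.05, 16 higher and 9 lower at MII, where 68.6% of all 11375 genes tested passed. The share of members called was thus near that of all genes. By direction, 31.7% of all genes were called higher and 36.9% lower. The median log2 fold change was 0.33 for the members and -0.10 for all genes. Nucleoporins were mostly called higher (11 of 19 tested) and less often lower (4), importins were split (3 higher, 4 lower, of 10), and of 6 exportins 2 were called higher and 1 lower. These classes were not tested against each other or against other genes. Values are relative to each library, so the balance of directions moves with the scaling: by total counts alone the median of all genes was -0.39, and 11 members were called higher and 10 lower. By total counts 7463 of the 11375 genes were called, 36.8% of those higher, against 46.2% of those called with TMM. Against the median of all genes, the members' median stood 0.43 higher with TMM and 0.42 higher with total counts.

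**Figure D2:**
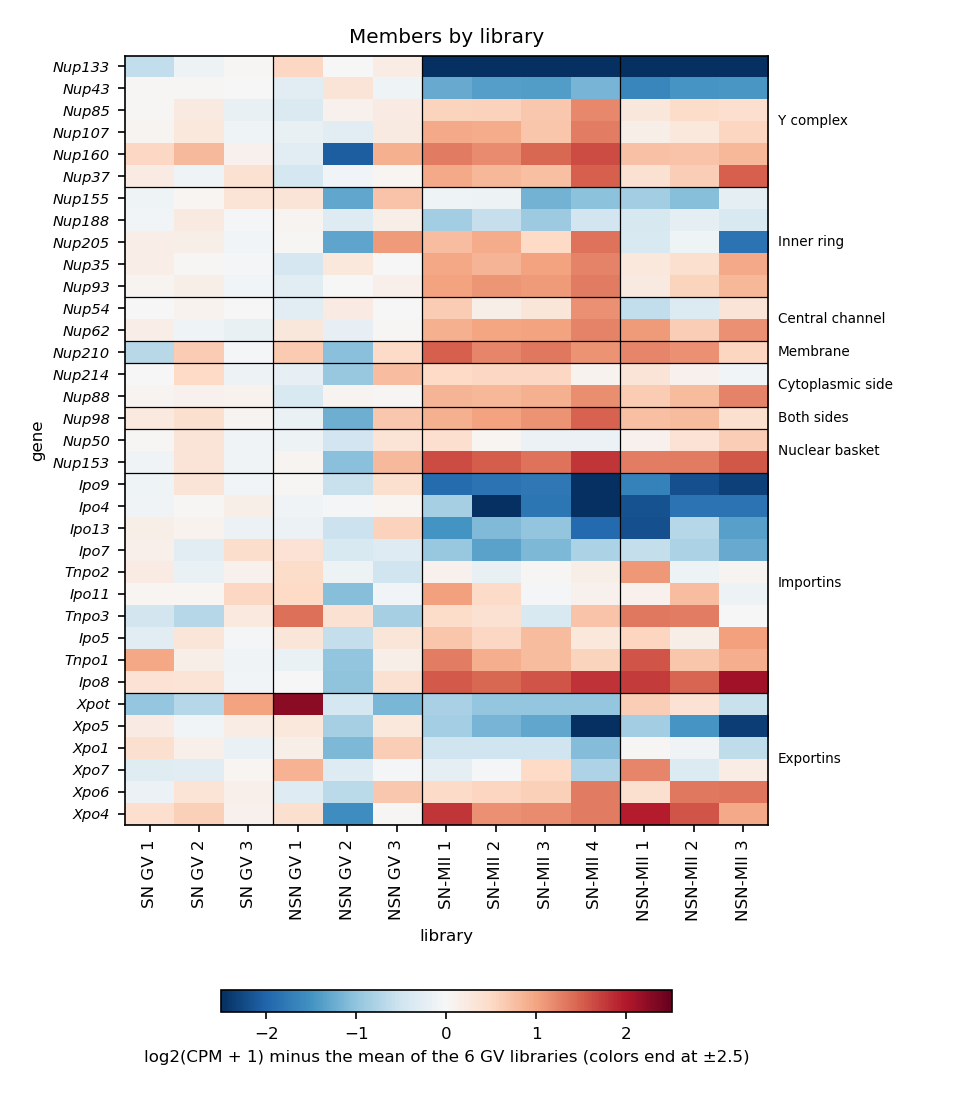
Level of the 35 tested members in each of the 13 oocytes (columns, by group) as log2(CPM + 1) minus the mean of the 6 GV libraries, in color, with genes as rows grouped by role. Nup133, Nup43, Ipo9, Ipo4, Ipo13, Ipo7 and Xpo5 are blue in all 7 MII oocytes, and the second NSN GV oocyte is pale to dark blue in many rows.

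The outer rings of the pore, made of Y-shaped complexes, held both directions among their 6 members with a Nup symbol. Nup133, a scaffold protein that links neighboring Y complexes, had 32.1, 45.4 and 50.5 CPM in SN GV and 71.0, 50.3 and 56.7 in NSN GV oocytes. It had 4.38, 4.49, 3.42 and 2.72 CPM in SN-MII and 6.66, 5.56 and 0.169 in NSN-MII oocytes. Every MII oocyte thus lay far under every GV oocyte, and the lowest, the third NSN-MII oocyte, held a single count. Nup133 fell by 3.65 ± 0.39 (SE) on the log2 scale (edgeR, adjusted p = 4.55e-07), the steepest fall of any member called. The gene lies at chr8:123897123-123949265 (mm10, minus strand), where 2 other genes have exons on the opposite strand.

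Nup43, a peripheral part of the same complex, had 50.3, 50.8 and 49.4 CPM in SN GV and 41.0, 62.4 and 46.0 in NSN GV oocytes, against 20.2, 18.5, 18.1 and 21.5 in SN-MII and 15.2, 17.2 and 17.5 in NSN-MII oocytes. It fell by 1.47 ± 0.16 (edgeR, adjusted p = 6.64e-07), again with no overlap between stages. The other Y complex members went the opposite way. Nup85 had 349.8, 398.8 and 300.4 CPM in SN GV, 266.5, 368.1 and 398.1 in NSN GV, 502.3, 511, 545 and 789.8 in SN-MII and 420.3, 474.5 and 458.1 in NSN-MII oocytes, with all MII oocytes above all GV oocytes. It was higher at MII by 0.57 ± 0.15, Nup107 by 0.64 ± 0.14, Nup160 by 0.85 ± 0.31 and Nup37 by 0.97 ± 0.20 on the log2 scale, all called by edgeR. The call of Nup160 was lost without the third SN GV or the first NSN GV oocyte, with an adjusted p of at most 0.0578 in edgeR over fits that left out 1 library. Nup160 and Nup85 were also not called by total counts.

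In the inner ring, Nup35 had 464.4, 421.7 and 400.1 CPM in SN GV, 311.8, 500.3 and 419.5 in NSN GV, 808.3, 746.1, 831 and 978.8 in SN-MII and 501.3, 545.4 and 804.6 in NSN-MII oocytes. Nup35 and Nup93 were higher at MII by 0.78 ± 0.15 and 0.84 ± 0.14, with no overlap between stages. Nup155 and Nup188 were lower by edgeR, with log2 fold changes of -0.75 ± 0.31 and -0.53 ± 0.14, and both overlapped. The call of Nup155 was kept in 5 of the 13 fits that left out 1 library. Nup188 had 129, 157 and 132 CPM in SN GV, 140, 107 and 148 in NSN GV, 72.8, 89.8, 71.2 and 96.4 in SN-MII and 101, 115 and 103 in NSN-MII oocytes. Its levels thus overlapped between the NSN groups, where the fall was 0.31 ± 0.21 (edgeR, adjusted p = 0.217), and were apart between the SN groups, where it was 0.75 ± 0.19 (edgeR, adjusted p = 0.00304). The NSN fall was called by total counts, at 0.60, and in FPKM with limma, at 0.68 or more. Nup205 had a log2 fold change of 0.01 ± 0.35 over all oocytes.

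In the nuclear basket, the central channel and on the cytoplasmic side, 1 of 2 tested members each was called higher and 0 lower, where 31.7% of all genes were called higher and 36.9% lower. Nup153, on the nuclear basket, had 39.1, 51.9 and 39.0 CPM in SN GV and 43.3, 19.6 and 73.7 in NSN GV oocytes. It reached 129, 120, 108 and 145 CPM in SN-MII and 101, 103 and 124 in NSN-MII oocytes, all above the GV oocytes. The rise was 1.40 ± 0.23 on the log2 scale (edgeR, adjusted p = 4.89e-05). Nup62, of the central channel, was higher by 0.99 ± 0.14, and Nup98, found on both sides of the pore, by 0.80 ± 0.23. Nup54 (0.22 ± 0.19), Nup50 (0.20 ± 0.16) and Nup214 (0.17 ± 0.22) did not pass. All changed sign by total counts, and Nup50 and Nup214 also in the limma fits on FPKM. In SN oocytes those limma fits called Nup50 lower, with a mean of 54.6 FPKM in SN GV and 38.5 in SN-MII oocytes. Nup88, which binds Nup214, had 580.4, 569.6, 593.2 and 718.8 CPM in SN-MII and 498.1, 554.8 and 760.5 in NSN-MII oocytes, all above the GV oocytes, which reached 345.5. It was higher by 0.92 ± 0.14, and Nup210, the one tested membrane member, by 1.12 ± 0.33. Nup98 and Nup210 were not called by total counts. Nup210 was also not called by limma on FPKM, where its mean was 1.70 at GV and 2.19 at MII.

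Among importins, the largest changes went down. Ipo9, which carries histones H2A and H2B, had 83.3, 112 and 85.5 CPM in SN GV and 91.0, 60.7 and 118 in NSN GV oocytes, against 22.8, 24.4, 25.4 and 12.5 in SN-MII and 27.0, 18.8 and 17.04 in NSN-MII oocytes. It fell by 2.12 ± 0.22 (edgeR, adjusted p = 2.31e-07). Ipo4, which imports histones H3 and H4 among other cargo, was near 20 CPM in all GV oocytes, from 19.9 to 23.7. At MII it had 11.5, 2.70, 5.39 and 2.997 CPM in SN and 3.93, 5.19 and 5.23 CPM in NSN oocytes. It fell by 2.04 ± 0.31 (edgeR, adjusted p = 1.93e-05). Both genes were thus apart between stages in every oocyte, with the first SN-MII oocyte the closest to GV for Ipo4 in CPM. In FPKM the closest for Ipo4 was the fourth SN-MII oocyte, at 6.12 against 7.07 in the lowest GV oocyte. Ipo4 shares exon sequence on the same strand with Gm49378.

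Ipo13, which carries cargo in both directions, had 24.7, 23.8 and 20.1 CPM in SN GV, 19.96, 14.98 and 33.7 in NSN GV, 7.29, 9.75, 10.8 and 5.04 in SN-MII and 4.04, 13.1 and 8.10 in NSN-MII oocytes. It fell by 1.46 ± 0.29 (edgeR, adjusted p = 0.00031). Ipo7, an importer of ribosomal proteins, had 11.7, 8.75 and 14.8 CPM in SN GV, 14.0, 7.99 and 8.34 in NSN GV, 5.04, 3.59, 4.33 and 5.72 in SN-MII and 6.66, 5.69 and 3.88 in NSN-MII oocytes. It fell by 1.11 ± 0.28 (edgeR, adjusted p = 0.00182). For both genes all MII oocytes were under all GV oocytes.

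Ipo8, a close relative of Ipo7 that binds Argonaute proteins, was the importin with the largest rise. It had 172, 168 and 126 CPM in SN GV and 134, 65.9 and 173 in NSN GV oocytes. Levels of 385, 362, 398 and 471 CPM in SN-MII and 447, 367 and 576 in NSN-MII oocytes were all at or above 362. The rise was 1.64 ± 0.20 on the log2 scale (edgeR, adjusted p = 1.82e-06). Ipo5 was higher by 0.57 ± 0.20 (edgeR, adjusted p = 0.0191). That call was lost without the first SN GV or the third NSN-MII oocyte, by total counts and by limma on FPKM. Tnpo2, Ipo11 and Tnpo3, which imports splicing factors, had log2 fold changes of 0.22 to 0.54 and were not called.

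Of the exportins, Xpo5, which exports precursors of microRNAs, had 96.5, 79.4 and 94.8 CPM in SN GV and 101, 46.8 and 100 in NSN GV oocytes. It had 46.1, 37.0, 33.5 and 8.85 CPM in SN-MII and 45.6, 29.3 and 15.5 in NSN-MII oocytes. The highest MII oocyte was just under the lowest GV oocyte, and the fall was 1.49 ± 0.32 (edgeR, adjusted p = 0.00059). Xpo4, which exports the translation factor eIF5A, had 36.8, 41.7 and 29.55 CPM in SN GV, 36.2, 8.61 and 27.9 in NSN GV, 96.1, 61.6, 63.05 and 68.5 in SN-MII and 109, 82.7 and 53.5 in NSN-MII oocytes. All MII oocytes were thus above all GV oocytes, and the rise was 1.38 ± 0.27 (edgeR, adjusted p = 0.000285).

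Xpo6, the exporter of actin, was higher at MII by 0.89 ± 0.26 (edgeR, adjusted p = 0.0061) with some overlap. Xpo1, the receptor of leucine-rich export signals, had a log2 fold change of -0.52 ± 0.25 (edgeR, adjusted p = 0.0765). It was called lower without the second NSN GV oocyte (edgeR, adjusted p = 0.00567) and by DESeq2 (adjusted p = 0.0409). Xpo7 (0.18 ± 0.32) did not pass, and Xpot, at the counts given above, had an adjusted p of 0.0756 in edgeR and 0.0471 in DESeq2.

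Of the 25 calls, 22 held in each of 13 fits that left out 1 library, all but Ipo5, Nup155 and Nup160. All 25 kept their direction in every alternative fit. In CPM, stages did not overlap for 15 of the 35 members (8 higher, 7 lower), against 47.4% of all genes tested (20.9% higher, 26.5% lower). Of these members, Nup85, Xpo4 and Xpo5 overlapped in FPKM. The summed level of cumulus and granulosa markers was also higher in all MII than in all GV libraries, at the values given above, and its part in these results was not tested. Cyp19a1 alone gave 37.8 to 158 CPM of that sum. Of the 17 markers, 9 to 11 had a count in GV libraries and 5 to 10 in MII libraries.

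**Figure D3:**
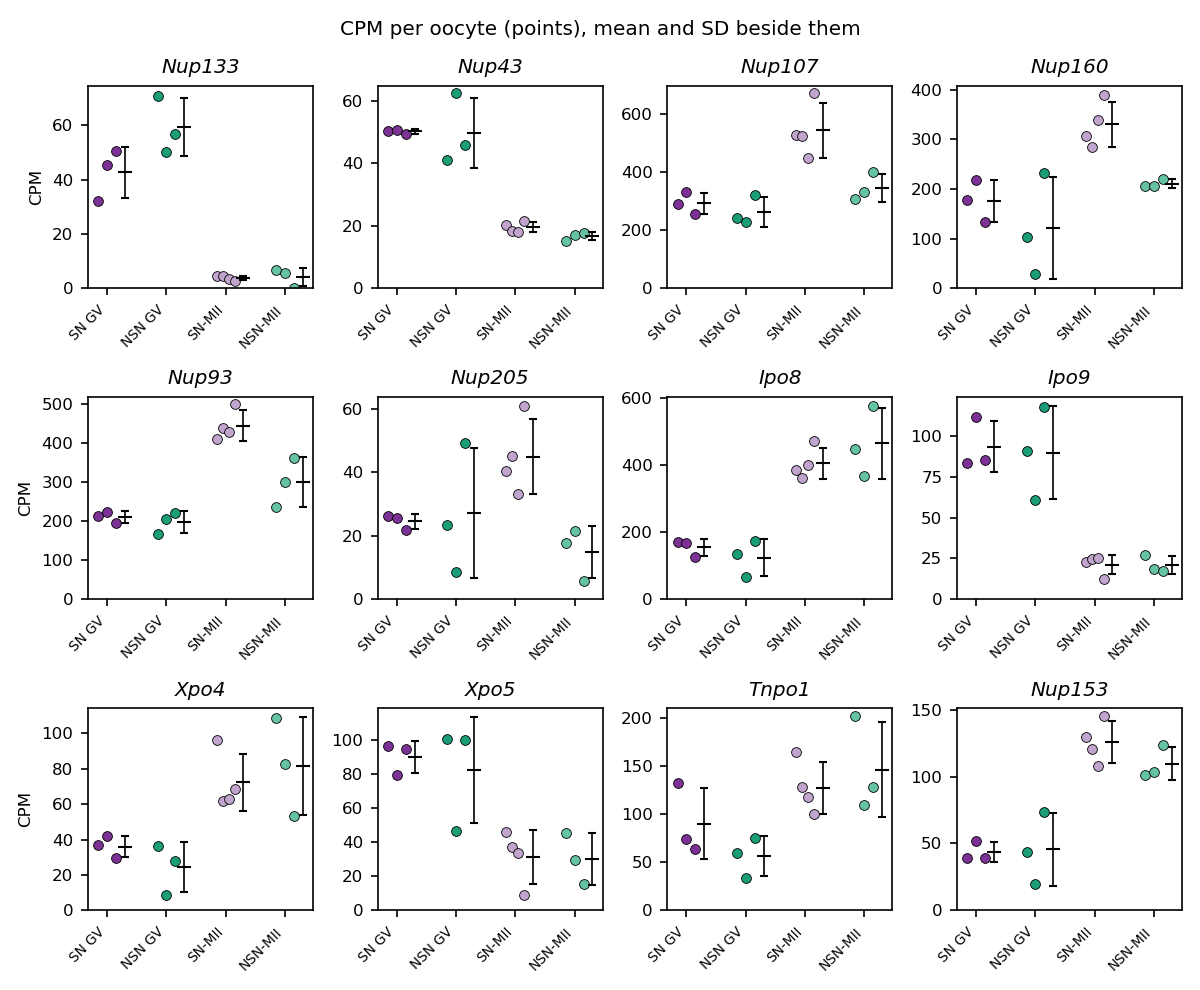
CPM of 12 members in each oocyte (points, by group, from 0), with the mean and SD of each group drawn beside them. Nup133, Nup43, Ipo9 and Xpo5 sit lower and Nup153, Ipo8 and Xpo4 higher in all MII oocytes, and Nup107, Nup160, Nup93 and Nup205 lie lower in the NSN-MII group without overlap.

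Maturation was next taken within each oocyte type. In SN oocytes 20 members were called (12 higher, 8 lower) and in NSN oocytes 16 (10 higher, 6 lower), where 56.3% of all genes were called in each type. Among all genes 25.1% were higher and 31.2% lower in SN oocytes, and 25.5% and 30.8% in NSN oocytes. Both types called 8 members higher and 6 lower, 6 members were called in SN oocytes alone, 2 in NSN oocytes alone, and none in opposite directions. All genes were not split in this way, so these counts cannot be set against a share of all genes. The 8 members called higher in both were Nup35, Nup37, Nup62, Nup88, Nup93, Nup153, Ipo8 and Xpo4, and the 6 lower were Nup43, Nup133, Ipo4, Ipo9, Ipo13 and Xpo5. Some of these calls rested on single libraries. In NSN oocytes the call was lost for Nup35 without the first NSN GV, the third NSN GV or the third NSN-MII oocyte, for Nup93 and Xpo5 without the first NSN GV or the third NSN-MII oocyte, and for Ipo13 without the third NSN GV oocyte. In SN oocytes it was lost for Xpo4 without the first SN GV, the third SN GV or the first SN-MII oocyte, and for Nup37 without the second SN GV oocyte. By total counts Nup35 and Nup93 were not called in NSN oocytes, and Xpo4 was called neither by total counts nor by limma in SN oocytes. By total counts, SN oocytes had 9 members called higher and 9 lower, and NSN oocytes 7 higher and 9 lower. Of 11375 genes, total counts called 5987 in SN oocytes, 33.5% of those higher, and 6083 in NSN oocytes, 35.7% of those higher.

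Calls in 1 type alone do not show a difference between types, which the interaction of type and stage tested. It called no member (edgeR, with 1 member at an unadjusted p under 0.05, and none called by DESeq2), where 0.0176% of all genes were called and 5.33% had such an unadjusted p. The smallest p was that of Nup205, which had a log2 fold change of 0.87 ± 0.47 in SN and -0.85 ± 0.50 in NSN oocytes, neither called, and a difference of -1.72 ± 0.69 (edgeR, adjusted p = 0.824).

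Tnpo1, which imports hnRNP proteins, was the member called in NSN oocytes alone with the smallest interaction p. It had 132, 74.2 and 63.5 CPM in SN GV, 59.8, 33.4 and 74.8 in NSN GV, 164, 128, 118 and 100 in SN-MII and 202, 109 and 128 in NSN-MII oocytes. It was higher at MII by 1.38 ± 0.34 in NSN oocytes (edgeR, adjusted p = 0.00235) and by 0.50 ± 0.31 in SN oocytes (edgeR, adjusted p = 0.184), a difference of 0.88 ± 0.45 (edgeR, adjusted p = 0.983). Without the first SN GV oocyte, its highest GV library, the SN value was 0.89 and called (edgeR, adjusted p = 0.0410). In FPKM the SN value was -0.18 and not called.

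Nup107 had 291, 330.5 and 257 CPM in SN GV, 242, 227 and 323 in NSN GV, 530, 525, 448 and 675 in SN-MII and 307, 332 and 401 in NSN-MII oocytes. It was higher at MII by 0.90 ± 0.20 in SN (edgeR, adjusted p = 0.00118) and 0.39 ± 0.21 in NSN oocytes (edgeR, adjusted p = 0.121), a difference of -0.50 ± 0.29 that was not called. Xpo6 had 17.1, 24.3 and 20.8 CPM in SN GV, 15.1, 11.6 and 30.95 in NSN GV, 26.8, 28.1, 29.3 and 48.2 in SN-MII and 25.6, 48.7 and 49.4 in NSN-MII oocytes. It was called in NSN oocytes alone, and that call was lost without any 1 of 4 libraries, the first or second NSN GV or the second NSN-MII oocyte or the third, and by total counts. Nup85, Nup98, Nup188, Nup210 and Ipo7 were the other members called in SN oocytes alone. The call of Nup98 was lost without the first SN GV, the third SN GV or the fourth SN-MII oocyte, with the replicate block, by total counts and by limma. That of Nup210 was lost without the first or the third SN GV oocyte, by total counts and by limma. In NSN oocytes Ipo7 was called lower by DESeq2 (adjusted p = 0.0396) and by total counts. Without the third NSN GV oocyte, edgeR called Nup98 (adjusted p = 0.00153) and Nup107 (adjusted p = 0.0400) higher in NSN oocytes. Nup85 and Nup210 were called in NSN oocytes in 0 fits.

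**Figure D4:**
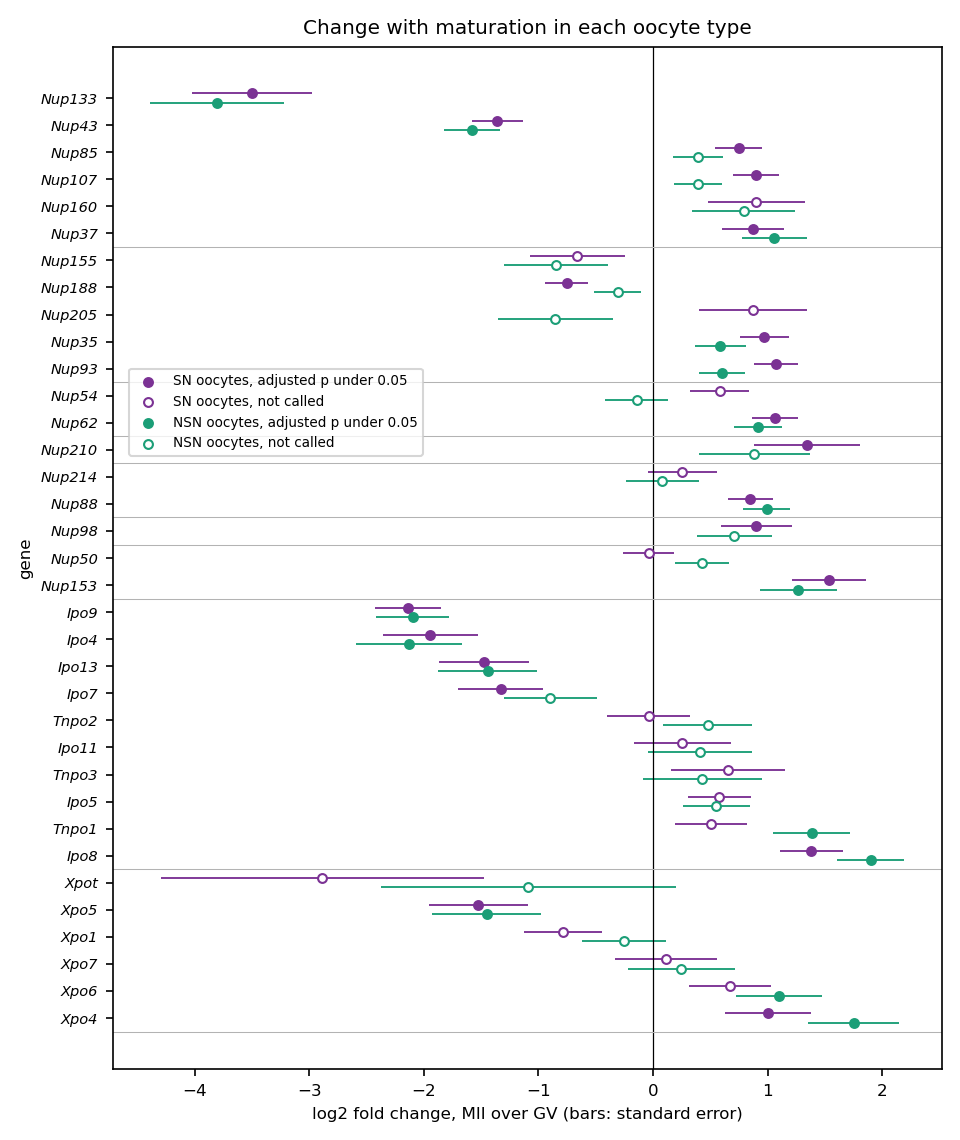
Log2 fold change from GV to MII with its standard error for the 35 tested members, in SN (purple) and NSN (green) oocytes, filled where edgeR's adjusted p was under 0.05. Both types lie on the same side of 0 for every member called in both, and Nup205 lies on opposite sides with neither value called.

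NSN and SN oocytes were then compared within each stage. At GV no member was called, as no gene of the 10839 tested was (0% called). No member had an unadjusted p under 0.05 in edgeR, against 1.75% of all genes, and DESeq2 called none. The median log2 fold change of the members, NSN over SN, was -0.05. In CPM, groups did not overlap for 1 member, Nup88, against 6.04% of all genes and 2.93% in its direction. It had 338, 345.5 and 341 CPM in SN GV and 245, 338 and 328 in NSN GV oocytes. Its lowest SN and highest NSN values lay close together, and in FPKM its groups overlapped. The smallest p values belonged to Nup133 (0.50 ± 0.27), Tnpo1 (-0.65 ± 0.36), Tnpo3 (0.94 ± 0.60) and Nup37 (-0.31 ± 0.20), each with an adjusted p of 1 in edgeR. Tnpo3 had 7.52, 6.15 and 12.8 CPM in SN GV and 29.4, 14.1 and 5.56 in NSN GV oocytes, so its value rested on the first NSN GV oocyte. Nup37, the smallest of the 4 changes, had 184, 147 and 207 CPM in SN GV and 117, 152 and 165 in NSN GV oocytes. With 3 oocytes a side, standard errors reached 0.62 on the log2 scale for members, so changes of that size were not detectable in the most variable ones.

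At MII no member was called either (edgeR, 0 of 34), where 0.259% of 10028 genes were, 25 of 26 of them lower in NSN-MII oocytes. Among the members 7 had an unadjusted p under 0.05 in edgeR, against 9.38% of all genes, 4 of them with at least a 1.5-fold difference (7.17% of all genes), and all 7 were nucleoporins with lower values in NSN-MII oocytes. The median log2 fold change was -0.29 for 19 nucleoporins, 0.11 for 10 importins and 0.31 for 5 exportins, and 0.02 for all genes. In CPM, groups did not overlap for 8 members, against 10.2% of all genes, 5.56% lower and 4.61% higher. In NSN-MII oocytes 7 of these members were lower (Nup43, Nup85, Nup93, Nup98, Nup107, Nup160 and Nup205) and 1 was higher (Nup188). In FPKM, Nup43, Nup98 and Nup160 overlapped.

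Nup160, of the outer rings, had 307, 285, 339 and 389 CPM in SN-MII and 206, 205 and 221 in NSN-MII oocytes. Its log2 fold change was -0.65 ± 0.15 (edgeR, adjusted p = 0.132), with lower CPM in 3 of 3 NSN-MII oocytes. In FPKM Nup160 overlapped, with 57.1, 56.1, 61.7 and 99.7 in SN-MII and 42.8, 42.7 and 59.5 in NSN-MII oocytes. Nup107, its partner in the Y complex, had the MII values given above and -0.66 ± 0.17 (edgeR, adjusted p = 0.164). Nup93, an inner ring scaffold, had 409, 438, 426 and 500 CPM in SN-MII against 235, 300 and 362 in NSN-MII oocytes, a log2 fold change of -0.57 ± 0.17 (edgeR, adjusted p = 0.228).

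Nup205, which binds Nup93, had 40.3, 45.05, 33.1 and 61.0 CPM in SN-MII against 17.6, 21.5 and 5.74 in NSN-MII oocytes, a log2 fold change of -1.56 ± 0.40 (edgeR, adjusted p = 0.159). The third NSN-MII oocyte was thus its lowest library. At GV the same gene overlapped, with 26.1, 25.6 and 21.9 CPM in SN and 23.5, 8.74 and 49.3 in NSN oocytes. Nup35 and Nup54, with unadjusted p values under 0.05 but overlapping groups, had log2 fold changes of -0.45 ± 0.18 and -0.77 ± 0.26.

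The calls at MII changed with 1 library, with the test and with the filter. Without the third NSN-MII oocyte, edgeR called 6 members lower in NSN-MII oocytes, where 2.24% of all genes were called, 45.5% of those higher. The 6 members were Nup35, Nup54, Nup93, Nup107, Nup160 and Nup205, with log2 fold changes between -1.19 and -0.67 and adjusted p values between 0.0317 and 0.0485. DESeq2 on all 7 libraries called Nup107, Nup160 and Nup205 lower, at adjusted p values of 0.0401, 0.0132 and 0.00548. It called 2.17% of all genes, 24.8% of those higher. Without a filter on low counts edgeR called Nup205 alone, also lower, where 0.602% of all genes were called, 15.7% of those higher. The summed level of cumulus and granulosa markers was highest in the same NSN-MII oocyte, at 189 CPM, where 7 of the 17 markers had a count. Its part in the result was not tested.

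**Figure D5:**
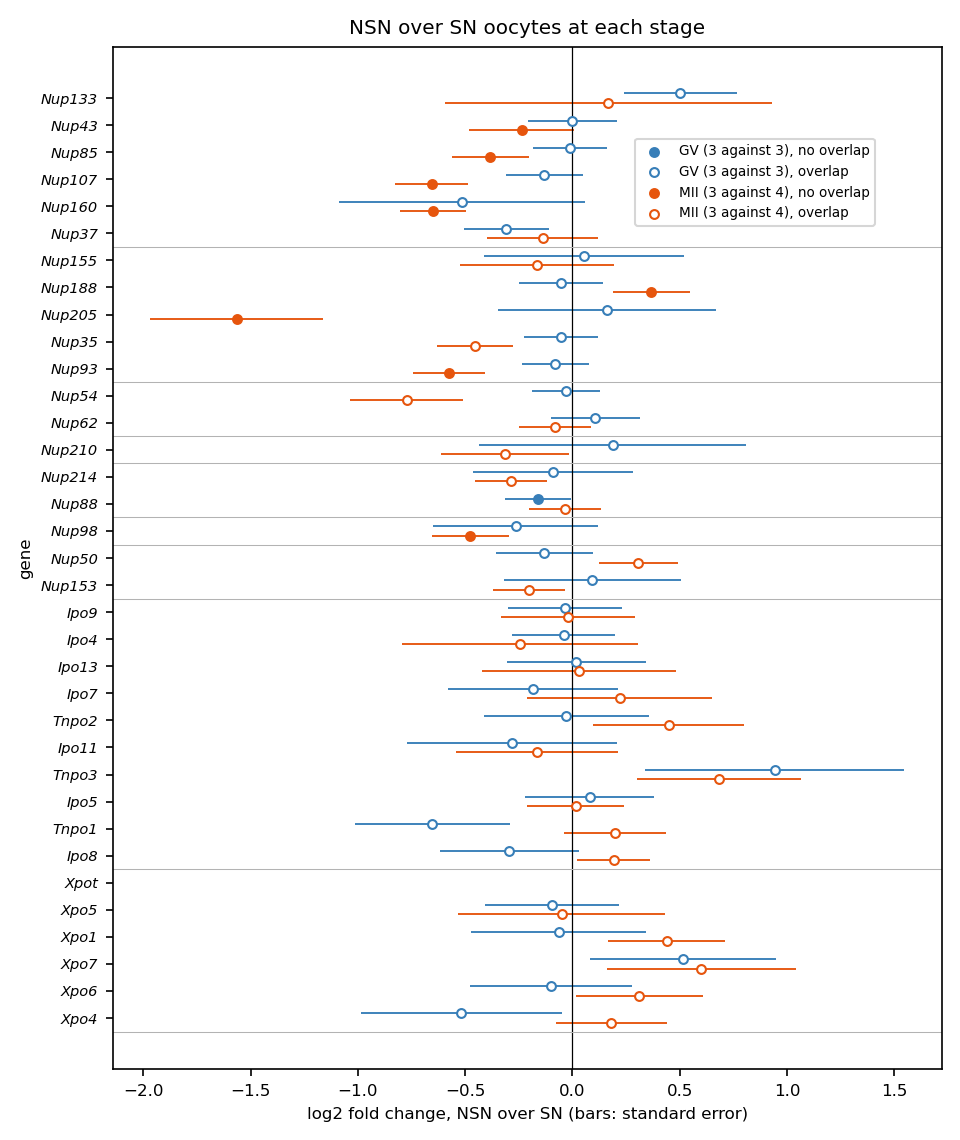
Log2 fold change of NSN over SN oocytes with its standard error for the 34 members tested at GV (blue) and MII (orange). Points are filled where the groups did not overlap in CPM. At MII 7 nucleoporins lie left of 0 and Nup188 right of 0 without overlap, and no member was called at either stage.

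The annotated 3′ ends of the mRNAs were searched for the letters TTTTAT and TTTTAAT, the cytoplasmic polyadenylation element that the protein CPEB binds in oocytes. The search took the last 100 bases of the principal GENCODE transcript on the sense strand, for the 34 members and 10605 tested genes with a 3′ UTR of that length. Either motif was found in 7 of 16 members called higher at MII (43.8%), 0 of 7 called lower and 2 of 11 others. Among all genes the share was 20.2%, and it was 29.7% in genes called higher, 11.1% in those called lower and 20.3% in those not called. The higher and lower members were thus placed in the order that all genes showed, at small numbers, and no test was made. The polyadenylation signal AATAAA, counted apart, was in 67.6% of members and 66.7% of all genes.

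The 7 windows of members called higher are given below, 30 bases each on the sense strand, with the motif in capitals, since they are the ones that carry that share.
Ipo8 (chr6:148770716-148770745, minus strand): aaatgcaggaacTTTTATgaatgtactgta
Xpo4 (chr14:57577521-57577550, minus strand): aaatatgttttcactaaatatTTTTATtac
Nup62 (chr7:44830710-44830739, plus strand): cagtcatgtctaTTTTATttctctgcactc
Nup37 (chr10:88178300-88178329, plus strand): aaaaatccttatTTTTATatcaaacatact
Nup98 (chr7:102119479-102119508, minus strand): ttatgtaaaggtTTTTATtaaaaaatatat
Nup35 (chr2:80658873-80658902, plus strand): tccaaataaactttgtcaatTTTTATgtgc
Ipo5 (chr14:120947941-120947970, plus strand): tacaaaaatgagTTTTATgcataaatcaga
All lie in 3′ UTRs of the GRCm38 (mm10) assembly. The motif started 47 to 99 bases before the annotated end in Ipo5, Ipo8, Nup37, Nup62 and Nup98, and 10 bases before it in Nup35. Xpo4 held both motifs, TTTTAAT at 53 bases and the TTTTAT shown at 9 bases. Nup54 and Xpo7 held a motif without being called. A match of letters is not a bound site, and the ends used in these oocytes were not measured.

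Counts and FPKM together give the length that RSEM assigned to each gene, since FPKM is the count per length, and this length depends on which isoforms reads were assigned to. It was tested with limma in 28 members with at least 20 counts and 1 FPKM in every library. Between MII and GV it changed in 6 of them, where 13.4% of 6452 genes changed. Nup50 was longer at MII by 0.34 ± 0.05 on the log2 scale, Xpo4 by 0.39 ± 0.09, Tnpo1 by 0.38 ± 0.10, Ipo13 by 0.25 ± 0.06 and Nup188 by 0.19 ± 0.05, and Xpo5 was shorter by limma, with -0.12 ± 0.03. For Nup50 the length relative to the GV mean was 0.858 to 1.11 in GV and 1.21 to 1.31 in MII oocytes, with no overlap, and Tnpo1 spanned 0.854 to 1.203 and 1.12 to 1.59. The call held in all 13 fits that left out 1 library for Nup50, Xpo4 and Xpo5, in 11 for Ipo13, in 8 for Tnpo1 and in 1 for Nup188. Within types, limma called 4 members in SN oocytes (Xpo4, Ipo13, Tnpo1 and Nup50), where 7.89% of genes were called. In NSN oocytes it called 1, Nup50, where 7.95% were. Xpo4 had 0.60 ± 0.12 in SN and 0.18 ± 0.12 in NSN oocytes, and types were not tested against each other. Isoforms themselves were not in the tables used here.

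Other genes of nuclear transport were counted by fixed lists, as 55 genes of which 52 were tested between stages. Of these, 25 were called higher and 14 lower by edgeR, with a median log2 fold change of 0.59. The total was near the 68.6% of all genes called, of which the parts were 31.7% higher and 36.9% lower. Pore proteins under other symbols had 9 of 12 called higher and 1 lower, among them Ndc1 (1.74 ± 0.16), which anchors pores in the membrane, Ahctf1 (1.61 ± 0.26), which seeds them on chromatin, Seh1l (1.41 ± 0.15), of the Y complex, and Pom121 (1.36 ± 0.17), a membrane protein. Of 8 genes of the Ran cycle 2 were higher and 3 lower. Ranbp1 and Rangrf, which bind Ran, had log2 fold changes of -2.95 ± 0.23 and -2.76 ± 0.43, Ranbp3, a cofactor of Xpo1, had -1.68 ± 0.17, and Rcc2 had 1.44 ± 0.18. Ran itself was not called (0.08 ± 0.25).

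The mRNA export list had 10 of 19 higher and 6 lower, and its largest changes were falls: Ddx39b (-4.46 ± 0.18), a helicase of export complexes, Thoc5 (-3.46 ± 0.27), of the THO complex, Nxf1 (-3.38 ± 0.27), the main mRNA export receptor, and Chtop (-2.86 ± 0.33). Lamina and envelope genes had 3 of 10 higher and 4 lower. Syne2 (1.55 ± 0.22) and Sun1 (1.54 ± 0.18), which link nucleus and cytoskeleton, rose, while Banf1 (-1.23 ± 0.14) and Lmnb2 (-1.06 ± 0.44) fell. Ranbp17 (1.09 ± 0.25) was the one call among 3 karyopherins outside the rule. Between NSN and SN oocytes edgeR called 0 of 50 of these genes at GV and 0 of 50 at MII, with 2 and 5 at an unadjusted p under 0.05, and DESeq2 called 0 at GV and 2 at MII. Among all genes 1.75% and 9.38% had such an unadjusted p at GV and at MII, and DESeq2 called 2.17% at MII, so the counts at MII were near those of all genes.

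Members varied together in places, as a description over few libraries. Over the 6 GV oocytes the closest pair in log2(FPKM + 1) was Nup160 and Nup98 (Pearson r = 0.99), and over the 7 MII oocytes Nup85 and Nup98 (r = 0.94), among 595 pairs with a median r of 0.23 and 0.02. The libraries share depth and scaling, and the second NSN GV oocyte was low in most members.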

How the data were processed

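SMART-seq2 libraries of 13 single oocytes were grouped by their labels. Per the labels and the methods, the authors trimmed reads with Trim Galore 0.4.4, aligned them with Bowtie2 2.3.5, quantified them with RSEM 1.2.28 on mm10 and used DESeq2 1.20.0. The deposited expected counts are RSEM estimates, which split shared reads between genes and need not be whole. They were rounded to whole numbers before testing. The FPKM values deposited by the authors are scaled by effective length and library total. No molecular identifiers or strand step were named, so 8 members with exons shared on the same strand and 9 on the other strand are uncertain to that extent.

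Counts were filtered with filterByExpr, scaled by TMM and tested with edgeR 4.0.16 (quasi-likelihood, Benjamini-Hochberg over all genes, calls at adjusted p under 0.05) in R 4.3.3. Stage, stage within type and their interaction came from 1 model of the 4 groups, and NSN against SN from separate fits per stage, all two-sided. CPM used the library total and the TMM factor over 13 libraries. Total counts of 7140416 to 8846287 set the precision, and no 2 libraries were duplicates. Fits with DESeq2 1.42.0, its size factors, total counts, no filter, a replicate block, limma 3.58.1 on log2(FPKM + 1) or log2(FPKM + 0.1), and without each library were alternatives. Leaving out 2 libraries together, the test of assigned length with its alternatives, and the alternatives of the 3′ search (the last 200 bases, the longest transcript) were added after seeing the data. Simulated data held planted log2 changes of 1 or 2 in either direction, so the recovery of smaller changes was not tested. Between stages, far fewer genes were changed in the simulation than were called in the data. For NSN against SN at MII, 111 of 193 changed genes among 9769 were called, all with the right sign, and 123 of 198 among 11089 for MII against GV. Recovery was lower elsewhere: 97 of 197 among 11098 for MII against GV in SN oocytes, 71 of 195 among 11094 in NSN oocytes, 74 of 195 among 10581 for NSN against SN at GV and 46 of 196 among 11122 for the interaction.

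Members and lists were chosen with earlier results of these data known. Values per oocyte were given for the 10 members called between stages without overlap and with the largest change, the 4 with the smallest p between types at each stage, the 3 highest and 3 lowest by FPKM, and up to 6 called in 1 type alone. Per-oocyte values of members outside these were chosen after they were seen. Genes outside the rule were named from the lists, at most 4 called per list. Annotation and sequence came from GENCODE M21 on GRCm38. Protein sequences were not used here.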

Additional observations from a re-analysis of the deposited data

Results flagged for a closer look

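Among the 4 SN-MII oocytes, 5 of 25 genes examined had 1 oocyte far from the others by Dixon's criterion, which chance meets in about 1 of 20 groups. Nup85 had 789.8 CPM in the fourth SN-MII oocyte, with the next at 545 CPM. Nup88 had 718.8 CPM in the same oocyte, with the next at 593 CPM. Xpo6 had 48.2 CPM there, with the next at 29.3 CPM. That oocyte also had the highest share of counts in the members, at 0.714%. Xpot, at 0.265 CPM in the first SN-MII oocyte with the next at 0.136, and Nup62cl, at 0.257 CPM in the second with the next at 0.136, differed by a single count.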

How the results depend on the processing

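Between stages, all 25 members called kept their direction in 22 alternative fits and 18 were called in each of them. The number of members called NSN against SN at MII, 0 as reported, was 3 with DESeq2, 1 without a filter, 4 at an unadjusted p under 0.05 with a 1.5-fold change, and 0 to 6 when 1 library was left out, the 6 without the third NSN-MII oocyte. It was 6 also without that oocyte and the second NSN GV oocyte together. Of other transport genes at MII, 0 were called as reported, 2 with DESeq2, 2 without a filter, 0 to 2 with 1 library left out and 2 without both libraries. These were Lbr, Syne2 and Ran, named after their values were seen. All genes called at MII numbered 26 with edgeR, 218 with DESeq2, 89 without a filter, 16 by total counts, 9 or 5 with limma, 69 with all libraries in 1 fit, 2 with the replicate block and 2 to 233 with 1 library left out. For the interaction they numbered 2 with edgeR, 46 with DESeq2 and 6 without a filter.

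In SN oocytes the members' median was 0.58 by counts with TMM and 0.27 by total counts. With limma on FPKM, which is scaled by library total without TMM, it was 0.20 and 0.23 at pseudocounts of 1 and 0.1. Tnpo1 in SN oocytes was 0.50 by counts and -0.18 in the 3 limma fits. Its assigned length in SN oocytes was longer at MII by 0.57 ± 0.13 on the log2 scale. The cause of these differences between counts and FPKM was not tested. The assigned length changed in 3 members at a minimum count of 100, where fewer genes were tested, and the 3′ motif was found in 1 member called lower within 200 bases. The labels do not say whether replicate numbers pair oocytes, and correlations of same-numbered deviations were between -0.46 and 0.20. Between NSN GV and NSN-MII oocytes the same number was the closest for all 3 replicates. In the other pairs of groups this held for the first replicate at most. So few oocytes cannot show whether they were paired. With the replicate block 0 members were called at GV, 0 at MII, 24 between stages, 19 in SN and 16 in NSN oocytes, and 0 in the interaction. Among all genes the block called 0 of 10839 at GV and 2 of 10028 at MII. Of 11375 genes it called 7455 between stages, 5623 in SN and 6151 in NSN oocytes, and 2 in the interaction. The members' medians in the same order were -0.12, -0.20, 0.39, 0.35, 0.43 and -0.09. With 3 or 4 oocytes a group, members with large standard errors are those least able to pass.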
